A study of Mus musculus with 7 samples.

Results

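The T cell receptor complex is the machine by which a CD4 T cell reads peptide on MHC class II, and its transcripts were followed here in T cells sorted from lung tumours. The 8 genes described were fixed by name: Trac, Trbc1 and Trbc2, which encode the constant parts of the receptor's alpha and beta chains, Cd3d, Cd3e, Cd3g and Cd247, which encode the CD3 delta, epsilon, gamma and zeta chains, and the coreceptor gene Cd4. All 8 were found among the 55364 genes of the count file, and all 8 entered the test. The tumours were grown orthotopically in the lungs of C57BL/6 mice older than 8 weeks, and cells positive for CD45, CD3 and CD4 were sorted from them. The Control group (5 libraries) had the genotype I-AbF/F, with loxP sites flanking the I-Ab gene of MHC class II and no Cre. The Cre group (2 libraries) had the genotype I-AbF/FCol1a2-cre, in which Cre stands under the promoter of the collagen gene Col1a2, active in fibroblasts, so the sorted T cells were not the target of the deletion. Both groups received tamoxifen, and the series design calls the libraries biological replicates.

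The alpha and beta chains bind the peptide and the MHC molecule but have almost no part inside the cell. CD3 gamma with epsilon, CD3 delta with epsilon, and a zeta homodimer surround them and carry the immunoreceptor tyrosine-based activation motifs that the kinase Lck phosphorylates and to which the kinase ZAP-70 binds. CD4 binds the side of the MHC class II molecule and brings Lck to the receptor. In the mouse a missing CD3 chain generally keeps the whole complex from reaching the surface, and a T cell uses either the Trbc1 or the Trbc2 constant gene in a given rearranged beta chain. The question set by the design was whether tumour CD4 T cells differ when fibroblasts cannot present antigen on MHC class II.

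The genes lie on several chromosomes (mm10, positions as in GENCODE M21). Cd3g (ENSMUSG00000002033, 44969572 to 44980431, minus strand), Cd3d (ENSMUSG00000032094, 44981786 to 44987339, plus strand) and Cd3e (ENSMUSG00000032093, 44998740 to 45009627, minus strand) are neighbours on chromosome 9. Trbc1 (ENSMUSG00000076490, 41538218 to 41539881) and Trbc2 (ENSMUSG00000076498, 41546730 to 41548352) follow each other on the plus strand of chromosome 6, where Cd4 lies far off (ENSMUSG00000023274, 124864692 to 124888221, minus strand). Trac (ENSMUSG00000076928) spans 54220521 to 54224206 of chromosome 14 and Cd247 (ENSMUSG00000005763) 165788681 to 165877277 of chromosome 1, both on the plus strand.

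No gene of the complex, nor Cd4, passed the test for a difference between Cre and Control: 0 of the 8 did (edgeR, adjusted p = 0.462 to 0.98), where 1 of 9854 tested genes (0.0101%) passed. Summed over the 8 genes, both Cre libraries lay within the Control range, while the balance between chains differed widely from library to library. Cd3e in Cre replicate 2 was the extreme case, with 3 counts beside 932 of Cd3d. Total counts ran from 1484655 to 1724346 in Control and were 1929899 and 1449739 in Cre, and genes with at least 1 count numbered 10151 to 14849 in Control, beside 9052 in Cre replicate 1 and 7896 in replicate 2. Values are given as CPM, counts scaled to a library total of 1000000. In such bulk libraries, fewer cells of a type and less RNA per cell cannot be told apart.

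The beta chain constant genes gave the most counts of the complex. Trbc2 had 1725, 2385, 1799, 1598 and 1494 CPM in Control replicates 1 to 5 and 2149 and 1840 CPM in Cre replicates 1 and 2. Its Cre values lay within the Control range, and its coefficient of variation over Control was 19.3%, against a median of 31.3% over 131 tested genes whose Control mean was within a factor of 2 of its own. Trbc1 had 348, 187, 903, 937 and 870 CPM in Control, beside 338 CPM in Cre replicate 1 and 898 in replicate 2. Control replicates 1 and 2 and Cre replicate 1 formed a low set, and the other 4 libraries lay close together at a higher level. The coefficient of variation of Trbc1 was 54.5%, above that of 90.4% of the 416 genes of like mean. Trac, the alpha chain constant gene, had 265, 203, 364, 188 and 149 CPM in Control, beside 305 CPM in Cre replicate 1 and 249 in replicate 2, and again both Cre libraries lay within the Control range.

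Trbc1 and Trbc2 are near-copies in their coding part, where the annotated transcripts share 495 of 518 bases (95.6%) and an unbroken run of 259 bases, so counts taken there could not be divided with confidence. The counted regions lie outside the coding part. Past the stop codon, the longest run of bases that the annotated 3′ ends of 216 and 171 bases have in common is 8. The 249 counted bases beyond each gene's end were not compared, and how reads that match both genes were counted is not given in the sources, so the Trbc1 and Trbc2 values and their shares are uncertain to that extent. The last exon up to the stop codon is shown for both genes, from chr6:41539645-41539665 and chr6:41548161-41548181 (mm10, plus strand, GENCODE M21 transcripts), because the counted region past each stop codon begins at the next base. Capitals mark the 4 of 21 bases that differ.
Trbc1: gtcaaAaGaaaGaattcAtga
Trbc2: gtcaaGaAaaaAaattcCtga

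Trbc1 gave 16.8% of beta constant counts in Control replicate 1 (95% exact binomial interval 15.6 to 18.1%) and 7.26% in Control replicate 2 (6.45 to 8.12%). In Control replicates 3 to 5 it gave 33.4%, 37.0% and 36.8%. The Cre libraries stood on either side, with 13.6% (12.6 to 14.6%) in replicate 1 and 32.8% (31.3 to 34.3%) in replicate 2. No molecular identifiers are named for these reads, so the intervals treat each read as a separate molecule and may be too narrow. Some libraries of the same group differed by more than these intervals. How far repeated reads of the same molecule add to this was not tested. The log2 ratio of Trbc1 to Trbc2 was −1.71 ± 1.27 in Control (SD, n = 5) and −1.85 ± 1.15 in Cre (SD, n = 2, exact permutation p = 0.762, two-sided). The sign of this small group difference turned when Control replicate 3, 4 or 5 or Cre replicate 1 was left out.

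**Figure D1:**
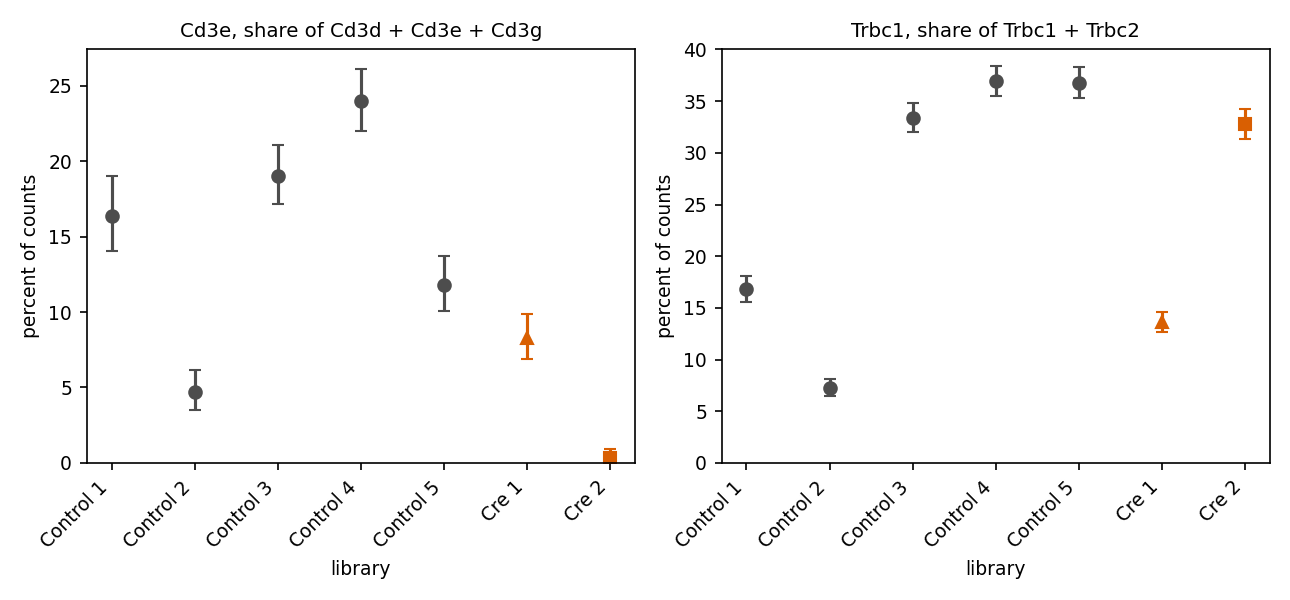
Share of Cd3e among the counts of Cd3d, Cd3e and Cd3g (left) and of Trbc1 among the counts of Trbc1 and Trbc2 (right), in percent, for each library. Grey points are Control, orange points are Cre, and bars are 95% exact binomial intervals. Cd3e lay between 4.72% and 24.0% in Control and at 8.30% and 0.307% in Cre, and Trbc1 between 7.26% and 37.0% in Control and at 13.6% and 32.8% in Cre.

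Of the CD3 chains, Cd3d, whose product pairs with epsilon, gave the most counts in all libraries but Cre replicate 1, where Cd247 gave more, and was among the steadier. It had 304, 400, 498, 586 and 643 CPM in Control, beside 398 CPM in Cre replicate 1 and 643 in replicate 2. The highest Control library held 2.11 times the CPM of the lowest, and both Cre libraries lay inside that range. Cd247, the zeta chain with the largest number of activation motifs, had 171, 358, 239, 307 and 319 CPM in Control, beside 434 CPM in Cre replicate 1 and 339 in replicate 2. Cre replicate 1 exceeded every Control library, and Cre replicate 2 did not. Cd3g, the other partner of epsilon, had 138, 293, 305, 158 and 42.4 CPM in Control, beside 266 CPM in Cre replicate 1 and 29.0 in replicate 2. Control replicate 5 and Cre replicate 2 were both far below the remaining 5 libraries, so each group held a low library.

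Cd3e, shared by both CD3 heterodimers, had 146, 51, 307, 405 and 149 counts in Control, beside 116 counts in Cre replicate 1 and 3 in replicate 2, which is 86.6, 34.4, 189, 235 and 91.5 CPM and 60.1 and 2.07 CPM. Cre replicate 1 lay within the Control range, and Cre replicate 2 lay at the level that a count of 0 still allows (3 counts). Of the summed Cd3d, Cd3e and Cd3g counts, Cd3e made up 4.72 to 24.0% in Control, 8.30% in Cre replicate 1 (6.91 to 9.88%) and 0.307% in Cre replicate 2 (0.0634 to 0.895%). Cd3d made up 50.2 to 82.8% in Control and 95.4% in Cre replicate 2, in which both Cd3e and Cd3g were scarce. Low counts of middling genes were common in that library: of 2234 tested genes whose Control mean was within a factor of 2 of that of Cd3e, 287 (12.8%) had 3 counts or fewer in Cre replicate 2 and 122 (5.46%) in Cre replicate 1. The part of the lower number of detected genes in the Cd3e value was not tested.

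Cd4, the coreceptor on which the cells were sorted, had 215, 275, 454, 351 and 203 CPM in Control, beside 379 CPM in Cre replicate 1 and 391 in replicate 2. Both Cre libraries lay inside the upper part of the Control range. Its 2 Cre values differed by a factor of 1.03, while those of Cd3g differed by a factor of 9.18. No such factor is given for Cd3e, with 3 counts in Cre replicate 2.

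**Figure D2:**
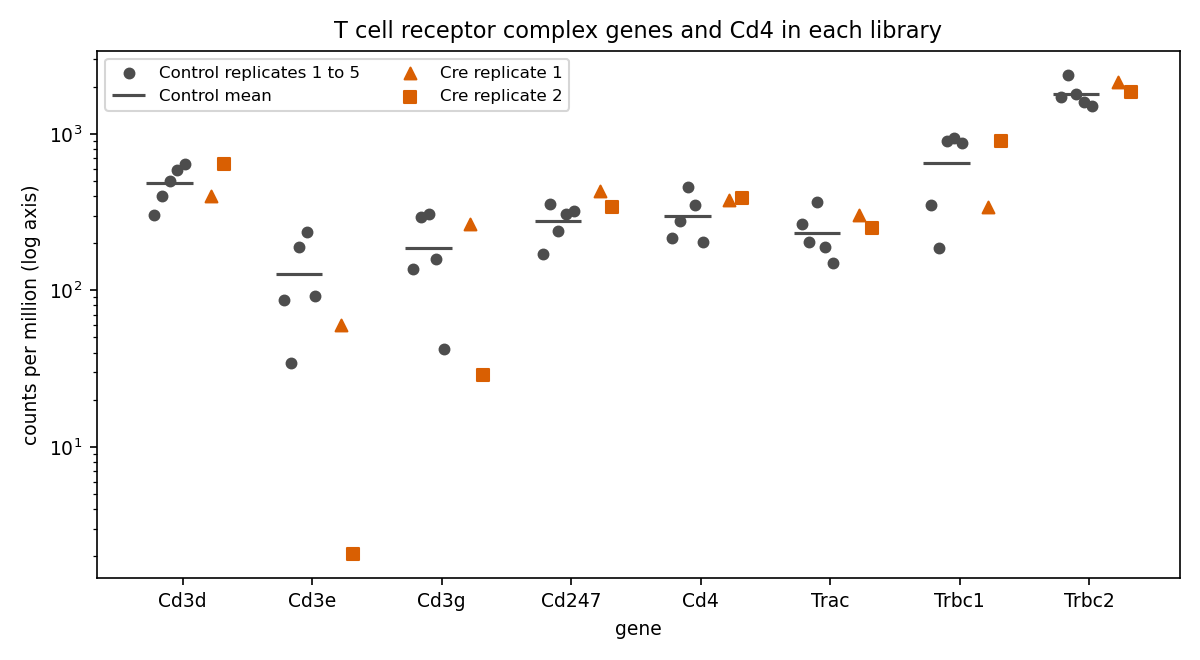
CPM of the 8 genes in each library, on a log axis. Grey points are Control replicates 1 to 5 from left to right, the bar is their mean, and orange symbols are the Cre libraries. Cd3e ran from 34.4 to 235 CPM in Control and stood at 60.1 and 2.07 CPM in Cre, whereas Trbc2 stayed between 1494 and 2385 CPM in all 7 libraries.

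Besides the counts compared above, levels of different genes were set side by side per kilobase of counted region. In Control these were 4286 ± 827 CPM per kb for Trbc2 (SD, n = 5), 909 ± 495 for Trbc1, 364 ± 103 for Cd3d, 229.6 ± 82.2 for Trac, 217 ± 129 for Cd3g, 113 ± 39.4 for Cd4, 82.5 ± 53.2 for Cd3e and 59.1 ± 15.7 for Cd247. Only Trbc2 was separated from its neighbour in this order, and every other neighbouring pair had overlapping Control ranges. Counting only the region with most counts of each gene kept Trbc2 and Trbc1 in the first places but moved Cd247 from place 8 to place 6, with 221 ± 59.5 CPM per kb. Cd3d then stood at 253 ± 53.4 CPM per kb, behind Trac at 304 ± 109 and Cd3g at 270.4 ± 161. Counts taken at 3′ ends need not grow with the length of a region, so the order is a description of these regions.

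Ratios between chains within a library do not depend on its depth or on a scaling factor, and 8 were formed. They are printed as plain ratios of counts, and 0.5 was added to each count before logarithms were taken. The epsilon to delta ratio, Cd3e to Cd3d, was 0.285, 0.0859, 0.379, 0.401 and 0.142 in Control, beside 0.151 in Cre replicate 1 and 0.00322 in replicate 2. Cre replicate 1 sat inside the Control range and Cre replicate 2 far below it. The mean log2 ratio was −2.17 ± 0.96 in Control and −5.39 ± 3.77 in Cre (exact permutation p = 0.286, two-sided, adjusted over the ratios 0.457), and the difference of −3.22 became −0.55 without Cre replicate 2 and −5.88 without Cre replicate 1. The epsilon to gamma ratio, Cd3e to Cd3g, ran from 0.117 to 2.16 in Control and was 0.226 and 0.0714 in Cre. The delta to gamma ratio, Cd3d to Cd3g, was between 1.37 and 3.72 in Control replicates 1 to 4 but 15.2 in Control replicate 5, and it was 1.497 and 22.2 in Cre. High values of this ratio thus occurred once in each group.

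Of the 8 ratios, 2 had both Cre libraries above every Control library. The ratio of Cd4 to the sum of Cd3d, Cd3e and Cd3g was 0.407, 0.379, 0.458, 0.358 and 0.261 in Control, beside 0.523 in Cre replicate 1 and 0.580 in replicate 2. Its mean log2 value was −1.45 ± 0.30 in Control against −0.86 ± 0.11 in Cre, a difference of 0.59 with an exact permutation p of 0.0952, the smallest that 2 libraries against 5 allow, and 0.381 after adjustment over the 8 ratios. The zeta ratio, Cd247 to the same sum, was 0.323, 0.492, 0.241, 0.313 and 0.411 in Control, beside 0.599 in Cre replicate 1 and 0.504 in replicate 2, a log2 difference of 0.67 with the same p-values. Cre replicate 2 lay just past Control replicate 2 in the zeta ratio. Both ratios share their denominator, which includes the low Cd3e and Cd3g counts of Cre replicate 2. Neither passed a threshold of 0.05, which this design cannot reach for a single value. Receptor constant genes against CD3 chains, Trac with Trbc1 and Trbc2 to Cd3d with Cd3e and Cd3g, was the steadiest ratio, at 2.78 to 4.42 in Control, beside 3.86 in Cre replicate 1 and 4.43 in replicate 2. The alpha to beta ratio, Trac to both Trbc genes, was 0.0631 to 0.135 in Control, beside 0.122 in Cre replicate 1 and 0.0909 in replicate 2, and the groups overlapped.

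**Figure D3:**
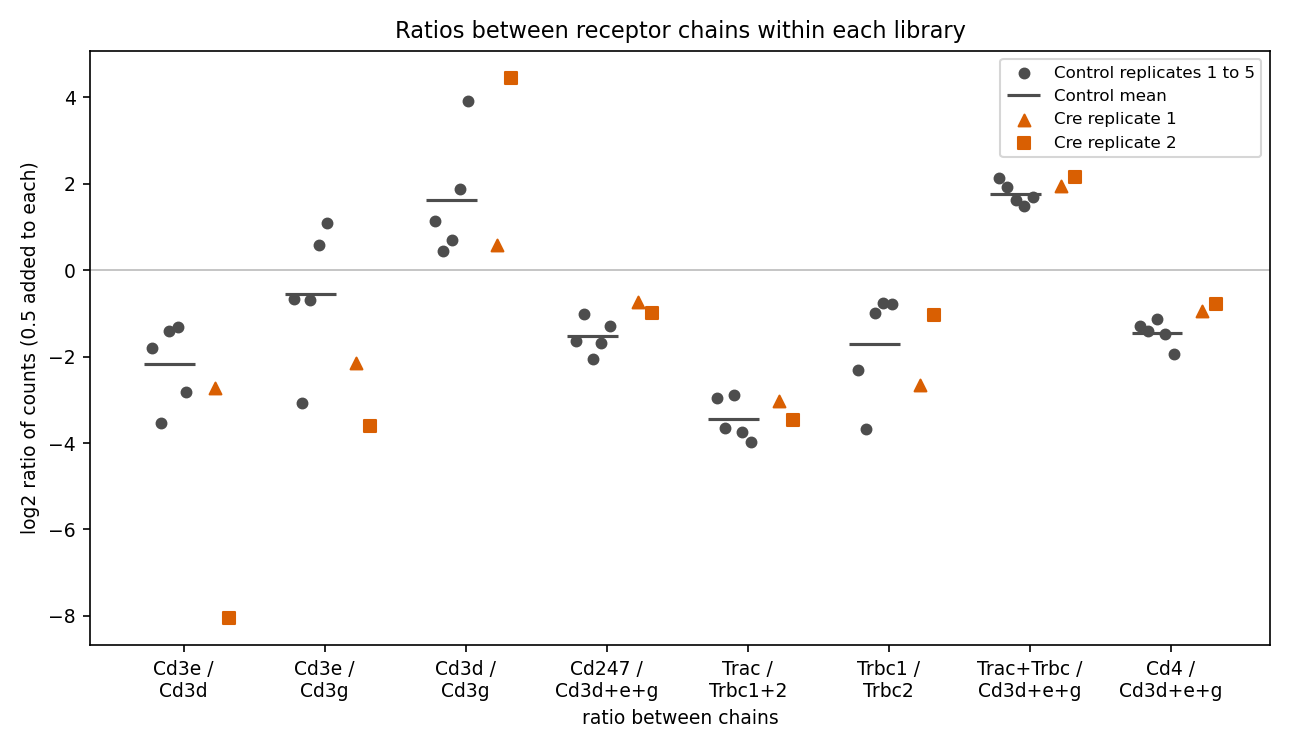
Log2 ratio of counts between chains within each library, with 0.5 added to each count. Grey points are Control replicates 1 to 5 with their mean as a bar, and orange symbols are the Cre libraries. The ratios of Cd247 and of Cd4 to the Cd3d, Cd3e and Cd3g sum had both Cre libraries above all Control libraries, and the Cd3e to Cd3d ratio of Cre replicate 2 was −8.06.

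Summed over the 8 genes, Control libraries held 3252, 4136, 4751, 4360 and 3813 CPM and Cre libraries 4328 and 4392 CPM (means 4062 ± 567 and 4360 ± 44.99, exact permutation p = 0.571, two-sided). The 4 CD3 chain genes summed to 1079.6 ± 229 CPM in the Control group against 1085 ± 102 CPM (p = 0.857 by the same exact test). The 3 receptor constant genes summed to 2683 ± 276 and 2890 ± 138 CPM (exact permutation p = 0.476). Each of these differences was smaller than the spread between Control libraries.

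In the fit over all genes, Cd3e had the largest fitted difference of the 8, −1.996 ± 1.16 on the log2 scale (SE, adjusted p = 0.462 by edgeR). It was −1.03 without Cre replicate 2 and −5.88 without Cre replicate 1, where the adjusted p was 0.0552. That last fit has a single Cre library, which is assumed to vary as the Control libraries do, and over all libraries left out in turn the adjusted p ran from 0.0552 to 0.689. Cd247 had 0.49 ± 0.40, Cd4 0.37 ± 0.42, Trac 0.25 ± 0.45, Trbc2 0.15 ± 0.30 and Cd3d 0.11 ± 0.38. Cd3g had −0.32 ± 0.85 and Trbc1 −0.06 ± 0.59. With each library left out in turn, the values ran from 0.31 (without Cre replicate 1) to 0.70 (without Cre replicate 2) for Cd247. They ran from 0.25 (without Control replicate 5) to 0.59 (without Control replicate 3) for Cd4 and from 0.099 (without Cre replicate 1) to 0.49 (without Control replicate 3) for Trac. For Trbc2 they ran from 0.045 (without Cre replicate 1) to 0.31 (without Cre replicate 2). Directions of Cd3d and Cd3g turned without Cre replicate 2, to −0.23 and 0.56, and that of Trbc1 turned to 0.029 with DESeq2 size factors and also without Control replicate 3, 4 or 5 or Cre replicate 1. Thus the fitted value in Cre was higher for 5 of the 8 and lower for 3, with a median log2 fold change of 0.13, beside −0.39 over all 9854 tested genes and −0.11 over the 1489 genes at or above the lowest of the 8 Control means. Of all tested genes, 39.9% had higher and 60.1% lower fitted values. At an unadjusted edgeR p under 0.05 there were 0 of the 8, where 1.41% of tested genes were higher and 10.2% lower, 11.6% in all. The DESeq2 test called 0 of the 8, where it called 0.355% of tested genes higher and 6.16% lower. No member had both Cre libraries outside the Control range, where 4.05% of tested genes lay above it and 10.9% below.

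In the authors' deposited table, made with DESeq2, the log2 fold change of Cd3e was −1.93 (p = 0.108, adjusted 0.629), that of Cd247 0.57 and that of Cd4 0.46. None of the 8 passed in the authors' deposited table, where the adjusted p-values ran from 0.629 to 1.

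**Figure D4:**
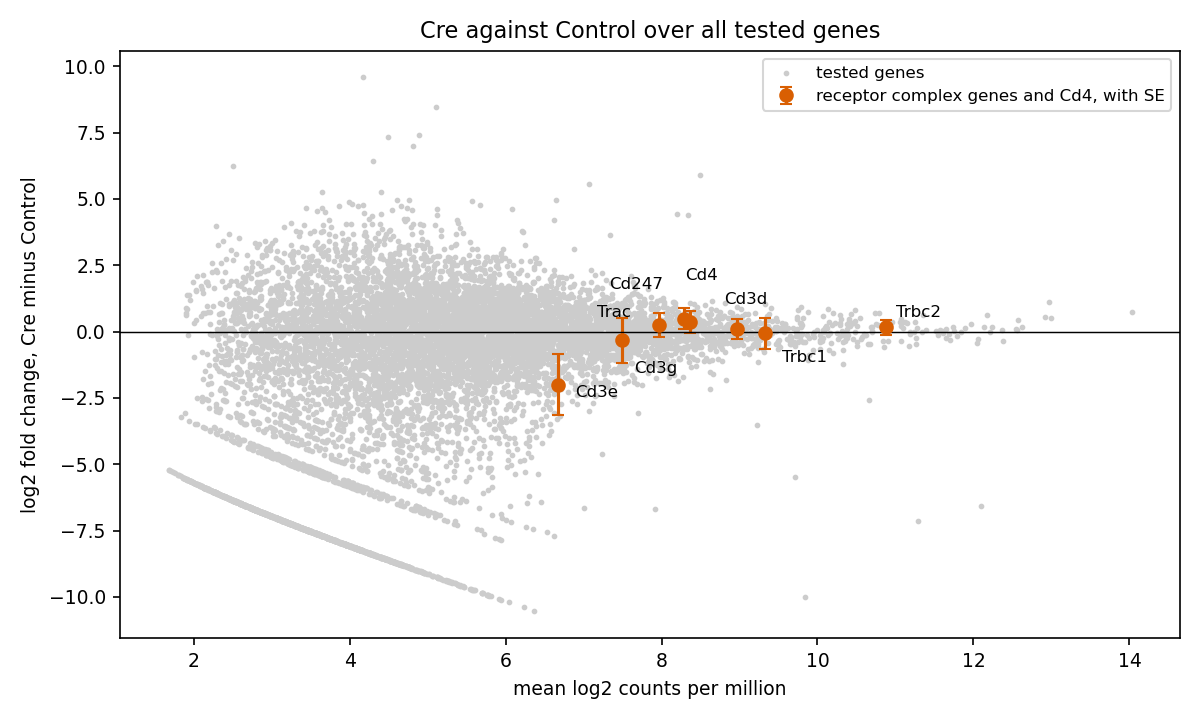
Log2 fold change (Cre minus Control) against mean log2 CPM for all 9854 tested genes in grey, with the 8 genes in orange and their SE as bars. Cd3e lies at −1.996 and the other 7 between −0.32 and 0.49.

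The counts of each gene came from regions near annotated 3′ ends. Of 21 regions listed for the 8 genes, 18 held counts, 19 ended 249 bases past an annotated transcript end, and no overlap with other genes' regions was found on the same strand. Trbc2 had a single region (chromosome 6, 41548182 to 41548601), with 171 bases of 3′ UTR and 249 bases past the gene. Trac had all of its counts in a region of chromosome 14 (54223686 to 54224455), with 521 bases of 3′ UTR among its 770. For Cd247, 98.996% of counts lay in the region at the end of transcript Cd247-201 (chromosome 1, 165861070 to 165862315), and the 3 regions farther downstream held 0 to 11 counts in any library.

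Several genes divided their counts, and the division varied between libraries. Trbc1 had 27.4 to 50.5% of its counts in Control, and 38.1% and 35.4% in Cre, in a region of 249 intronic bases of the longer transcript that follows the end of the shorter Trbc1-201 (chromosome 6, 41539348 to 41539596). The remainder lay past the stop codon of Trbc1-202. The likeness of the intronic bases to Trbc2 was not examined. Control replicates 4 and 5, with the largest Trbc1 shares of beta constant counts, also had the largest intronic share. The intronic counts are themselves part of the Trbc1 counts. In the Cre pair the order was the reverse: a Trbc1 share of 13.6% went with 38.1% intronic in replicate 1, and 32.8% with 35.4% in replicate 2. Cd3d had 24.8 to 42.3% of its counts in Control and 38.2% and 45.5% in Cre in a region of 20 bases (chromosome 9, 44986081 to 44986100), which is coding in Cd3d-201 and 3′ UTR in Cd3d-202. Cd3g had up to 26.5% of its counts in a region of 17 bases of 3′ UTR (chromosome 9, 44970691 to 44970707), in Control replicate 4, and none there in Control replicate 5 and Cre replicate 2, the libraries lowest in Cd3g.

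Intronic regions that follow retained-intron transcripts gave a difference between libraries for Cd4 and Cd3e. For Cd4, 249 intronic bases after Cd4-202 (chromosome 6, 124878492 to 124878740) held 33, 54, 68, 47 and 31 counts in Control, 7.77 to 13.2% of the gene, and 77 counts (13.6%) in Cre replicate 2. Cre replicate 1 held 0 counts there beside 731 in the region at the gene's end, which allows a share of up to 0.503% by the exact binomial interval. For Cd3e, 249 intronic bases after Cd3e-202 (chromosome 9, 45002910 to 45003158) held 18, 8, 22, 5 and 48 counts in Control, or 1.23 to 32.2% of the gene, and 0 counts in both Cre libraries. That region lies opposite the antisense gene Gm48719, and the strand setting of the counting is not given. With 116 and 3 Cd3e counts, those zeros allow shares of up to 3.13% and 70.8%. No test was made on these shares.

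**Figure D5:**
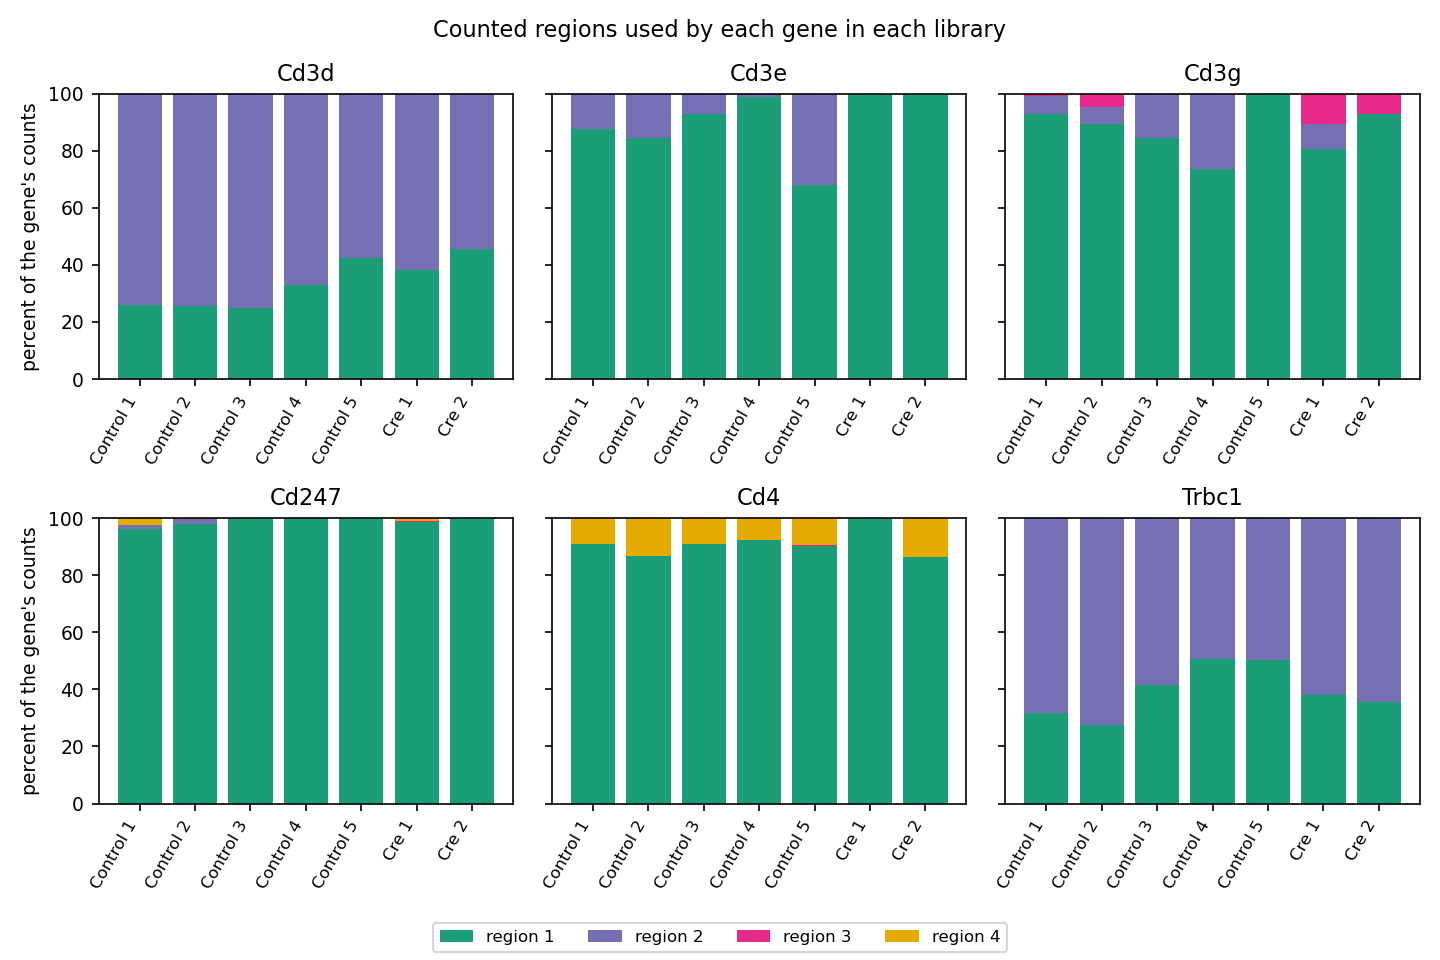
Percent of each gene's counts in each of its counted regions, numbered by position along the chromosome and coloured by number, for 6 genes and 7 libraries. Cd4 region 4 and Cd3e region 2 are intronic. Cd4 region 4 held 7.77 to 13.6% of counts in 6 libraries and 0% in Cre replicate 1.

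Patterns most like those of each gene were sought over the 7 libraries among 5014 other tested genes of at least 30 CPM, as the root mean square difference of log2(CPM + 1) after each gene was centred on its mean. No gene of the complex had another of the 8 among its nearest 3. The nearest pair among them was Cd4 and Trac, at a difference of 0.34, and Trac stood at place 54 for Cd4. Nearest to Cd4 were Gm26377 (0.12), the elongation factor gene Eef1a1 (0.12) and Gm10086 (0.16). Gm26377 ran from 1099 to 2453 CPM and Eef1a1 from 1143 to 2572 CPM, both lowest in Control replicate 5 and highest in Control replicate 3. Whether these 2 genes share reads was not tested. Nearest to Cd3e were Cr1l (0.27), Mtrex (0.31) and Taf10 (0.38), each of which had 0 CPM in Cre replicate 2. Nearest to Cd3g were Itpr1 (0.28), Retreg1 (0.30) and Pecam1 (0.43), which were lowest in Control replicate 5 and Cre replicate 2 as Cd3g was. Cd3e and Cd3d, neighbours on chromosome 9, differed by 2.05, and Cd3d and Cd3g by 1.52. The spread of a gene about its own mean, taken the same way, was 1.94 for Cd3e, 1.26 for Cd3g and 0.38 for Cd3d. From the others of the 8, Cd3e differed by 1.59 (Cd3g) to 2.11 (Cd247), so its own spread weighs on each of these values. Trbc1 and Trbc2 differed by 1.06, with own spreads of 0.88 and 0.22, and Trbc1 held place 2415 for Trbc2.

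Genes that act next to the receptor are given as background, and no member of these lists passed edgeR over all genes. Of 19 genes of proximal signalling, the fitted value in Cre was higher for 11 and lower for 8 (median log2 fold change 0.0147). At an unadjusted edgeR p under 0.05 there were 0 in either direction, beside 11.6% of all tested genes. DESeq2 called 0, beside 0.355% of all tested genes higher and 6.16% lower. Fitted values were higher for 39.9% of all tested genes and lower for 60.1%. Grap2 alone of this list had both Cre libraries above every Control library, as had 4.05% of all tested genes. It had 158 to 387 CPM in Control, beside 482 CPM in Cre replicate 1 and 677 in replicate 2. Lck, the kinase that CD4 carries, had 1374 ± 386 CPM in Control, beside 1723 CPM in Cre replicate 1 and 566 in replicate 2, so Cre replicate 2 was low in Lck as well as in Cd3e and Cd3g. Zap70, which binds phosphorylated CD3 and zeta chains, had 6 to 182 counts in Control, beside 112 counts in Cre replicate 1 and 16 in replicate 2. Lat, the adaptor that ZAP-70 phosphorylates, averaged 1181 ± 604 CPM over Control and 1830 ± 252 CPM over Cre (log2 fold change 0.65 ± 0.42, edgeR adjusted p = 0.52).

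Of 11 tested genes that restrain the receptor or turn it over, 8 had higher and 3 lower fitted values (median 0.37). At an unadjusted edgeR p under 0.05 there was 1 gene, lower in Cre, and DESeq2 called 0. Of all tested genes, 10.2% were lower at that p, 10.9% had both Cre libraries below every Control library, and DESeq2 called 6.16% lower. The gene at that p was Sla, whose adaptor product promotes loss of the receptor with the ligase CBL. It had 796, 515, 1202, 912 and 480 counts in Control, beside 389 in Cre replicate 1 and 192 in replicate 2, below every Control library (log2 fold change −1.505 ± 0.48, edgeR adjusted p = 0.367). Laptm5, a lysosomal protein that promotes degradation of CD3 zeta, had 4473 ± 1285 and 3308 ± 155 CPM. Dgkz, which consumes the diacylglycerol made by receptor signalling, had 290.7 ± 118 and 148 ± 26.1 CPM, and its groups overlapped.

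Among 8 surface genes of T cell identity, 5 had higher and 3 lower fitted values (median 0.39). Cd96, a receptor that binds a nectin-like ligand, had 66, 24, 15, 37 and 23 counts in Control, beside 242 in Cre replicate 1 and 277 in replicate 2, above every Control library, with a log2 fold change of 2.95 ± 0.88 (edgeR adjusted p = 0.367). It was the 1 gene of the list at an unadjusted edgeR p under 0.05, and the DESeq2 test called it higher. The shares over all tested genes were 1.41% higher at that p, 0.355% called higher by DESeq2 and 4.05% above every Control library. Cd2, an adhesion receptor, had 175 ± 127 CPM in Control, beside 132 CPM in Cre replicate 1 and 33.1 in replicate 2. Of 14 transcription factors that act on these genes, 6 had higher and 8 lower fitted values (median −0.19). Tcf12, an E protein, had 54 to 268 counts in Control, beside 22 in Cre replicate 1 and 4 in replicate 2, below every Control library (edgeR adjusted p = 0.405), and the DESeq2 test called it lower. Tcf7 had 420 ± 150 and 749 ± 61.6 CPM, above every Control library in both Cre libraries (edgeR adjusted p = 0.427). Tcf7 and Tcf12 were the genes of this list at an unadjusted edgeR p under 0.05. Among all tested genes, 10.2% were lower at that p, DESeq2 called 6.16% lower, and 10.9% had both Cre libraries below every Control library. Zbtb7b, the factor that fixes the CD4 lineage, had 129 ± 51.1 and 171 ± 86.6 CPM.

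The labelled cell type was checked against other lineages. Cd8a had 0 or 1 count in every library and Cd8b1 0 to 15 counts. Trdc, the delta chain constant gene of gamma-delta T cells, had 14 counts in Control replicate 1 and 0 elsewhere, and Sox13 was at 0 throughout. Gamma-delta markers summed to 0 to 47.4 CPM in Control libraries, beside 83.9 and 0 in the Cre pair, and the value of Cre replicate 1 was nearly all from Trgc2 (161 counts). Among B cell genes, Ms4a1 was at 0 in all libraries and Ighm had 32 to 574 counts in Control, beside 183 in Cre replicate 1 and 59 in replicate 2. The list of 10 macrophage and monocyte genes summed to 14.5 to 77.5 CPM in Control replicates 1 to 4, 6689 CPM in Control replicate 5 and 2.59 and 7.59 CPM in Cre, and Apoe alone gave 10867 counts in Control replicate 5. All 4 tested genes of that list had lower fitted values in Cre, as did 60.1% of all tested genes. DESeq2 called 1 of the 4, Lyz2, lower, and 6.16% of all tested genes. Lyz2 had 8 to 54 counts in Control and 0 in both Cre libraries. Adgre1 was at 0 in all libraries and Csf1r in all but Control replicate 1. Control replicate 5 was also the Control library lowest in Cd4, Trac and Cd3g and highest in Cd3d, and the part of other cells in those values was not tested. NK cell genes summed to 11.1 to 43.0 CPM in Control libraries, beside 6.22 and 0 in the Cre pair, with Ncr1 at 0 throughout. The highest of these sums, in Control replicate 5, was nearly all from Tyrobp (69 counts, 42.4 CPM). Fibroblast genes summed to 159.6 to 575 CPM in Control libraries, beside 276 and 53.1 in the Cre pair, and epithelial genes to at most 2.37 CPM. Of 5 tested fibroblast genes, the fitted value was higher for 1 and lower for 4. DESeq2 called 6.16% of all tested genes lower and 1 of these 5. That gene was Col1a2, whose promoter drives the Cre, with 40 to 336 counts in Control against 7 and 2 for Cre (log2 fold change −5.28 ± 1.36, edgeR adjusted p = 0.323). Both Cre libraries lay below every Control library in 2 of these 5, Col1a2 and Col1a1, as in 10.9% of all tested genes. Col1a1 had 61.1 to 109 CPM in Control, beside 43.5 CPM in Cre replicate 1 and 4.14 in replicate 2. The part of fibroblast RNA in the values of the receptor genes was not tested.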

How the data were processed

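RNA of sorted CD4 T cells was read as 3′ UTR libraries. Raw counts per 3′ region for 116000 regions were deposited, per the file headers. Per the submitters' processing notes, FastQC 0.11.8, HISAT2 2.1.0 and DESeq2 were used with the mm10 build. Which counter, strand setting and annotation release made the counts is not given in the sources used here. DESeq2 p-values, a ratio and log2 fold changes of Cre against Control were also deposited by the authors, as was the GC percent of each gene, which was not used.

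Region counts were summed per gene. The main test was the quasi-likelihood test of edgeR 4.0.16 (R 4.3.3, TMM, filterByExpr with minimum count 10 and total 15, group only), two-sided, adjusted by Benjamini-Hochberg over 9854 genes at 0.05, with the SE taken from the F statistic. It was tested on simulated data. Single values were compared by exact two-sided permutation over the 21 splits (scipy 1.17.1). Alternatives were other scaling factors and filters, a replicate block, DESeq2 1.42.0, limma voom 3.58.1, other pseudocounts, the main region only, and each library left out. Regions were placed with GENCODE M21, in which 55104 of the genes were found and 99.4% of those had the same coordinates. Named genes were the 8, fixed pathway and marker genes with up to 4 of smallest p per list (not all printed), and the 3 nearest in pattern. The 8 genes and the lists were chosen with earlier results of these data known.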

Additional observations from a re-analysis of the deposited data

Results flagged for a closer look

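Within the 5 Control libraries, 43 sets of values were checked for a library far from the other 4 (Dixon's ratio above 0.71), and 5 were marked; chance marks about 1 set in 20. Control replicate 5 had the highest sum of proximal receptor signalling genes, 7416 CPM. It also had the highest sum of macrophage and monocyte genes, 6689 CPM, of which Apoe alone gave 6676 CPM. Control replicate 1 had the highest sum of CD8 genes, 9.49 CPM, and of epithelial genes, 2.37 CPM. Control replicate 2 had the highest share of Cd3g counts in the third of that gene's regions (chromosome 9, 44973371 to 44973619), 4.83%. None of the 8 genes' levels or ratios was marked within Control.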

How the results depend on the processing

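None of the 8 genes passed under any of the 14 alternative fits, and 101 of 112 alternative fold changes kept their direction and call. Of the alternative ratios and sums, 74 of 80 and 27 of 30 kept their direction. Their call could not change, because the permutation p cannot fall under 0.05 in this design. These counts do not weigh the size of a difference. Genes past the threshold, 0 higher and 1 lower, became 15 and 28 without a filter, 35 and 607 with DESeq2, 3 and 0 with limma voom, and 0 to 17 and 1 to 202 with a library left out, the upper values without Cre replicate 1. The causes were not tested. The replicate block gave 5 lower genes and turned Trbc1 to 1.07 and Trbc2 to −0.071; same-numbered Control and Cre libraries were not seen to deviate together (r = 0.00302 and 0.00202), so the numbers were not taken as pairs. Trbc1 also turned to 0.0291 with DESeq2 size factors, 0.0448 without a filter and 0.0291 with the DESeq2 test. With a library left out, log2 fold changes ran from −0.23 to 0.43 for Cd3d, −2.67 to 0.56 for Cd3g and −0.88 to 0.49 for Trbc1. Log2 ratio differences ran from −1.04 to 2.83 for Cd3d to Cd3g, −0.0079 to 0.42 for Trac to Trbc and −0.96 to 0.67 for Trbc1 to Trbc2. The CD3 sum difference ran from −89.2 to 78.0 CPM, and was −50.2 CPM with the main region only. Size factors moved the median of all genes by 0.10 and upper-quartile factors by −0.10. With 2 Cre libraries and Cd3e at 3 counts in one of them, a fall in Cd3e could not be told from a single low library.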

Other observations

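Variable, diversity and joining segments of T cell receptor chains, among them gamma and delta variable segments, were counted at low and uneven levels. Of 254 such genes in the file, 10 to 28 had a count in a Control library and 11 and 9 in the Cre libraries, and they summed to 386 to 1698 CPM in Control libraries, beside 874 and 730.5 in the Cre pair. Traj18 alone held 43.9% of all segment counts, with 438, 283, 405, 467 and 1135 counts in Control, beside 828 in Cre replicate 1 and 547 in replicate 2. It was followed by Traj27 (18.02%), with 79 to 419 counts in Control, beside 233 in Cre replicate 1 and 215 in replicate 2. Traj19 had 80, 0, 171, 304 and 493 counts in Control, beside 133 in Cre replicate 1 and 0 in replicate 2, and Traj49 16 to 231 counts in Control, beside 159 in Cre replicate 1 and 0 in replicate 2. Of 9 tested segments, the fitted value in Cre was higher for 2 and lower for 7, and none passed edgeR (lowest adjusted p = 0.427). At an unadjusted edgeR p under 0.05 there were 0 higher and 1 lower, beside 1.41% and 10.2% of all tested genes, and DESeq2 called 0. The segments were taken by the start of their names, and the largest were named by their counts after these were seen.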
